A study of Mus musculus with 24 samples.

Results

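The 10 genes described here encode the fast and slow isoforms of the adult skeletal muscle sarcomere. They were taken from the 55401 genes of the count table by matching Ensembl identifiers to the symbols Myh1, Myh2, Myh4, Myh7, Tnni1, Tnni2, Tnnt1, Tnnt3, Tnnc1 and Tnnc2 in GENCODE M21, and all 10 were found. The rule names the genes and uses no measured value, although it was set with earlier results of these data known. The fast genes are Myh1, Myh2 and Myh4 (myosin heavy chains IIx, IIa and IIb) with Tnni2, Tnnt3 and Tnnc2 (fast troponins I, T and C), which makes 6. The 4 slow genes are Myh7 (slow or beta myosin heavy chain) with Tnni1, Tnnt1 and Tnnc1 (slow troponins I and T, and the troponin C of slow and cardiac muscle).

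Skeletal muscle fibers differ in how fast they contract, and the myosin heavy chain sets much of that speed because its head splits ATP as it pulls on actin. Troponin sits on the thin filament as a complex of a calcium sensor (troponin C), an inhibitor (troponin I) and a subunit bound to tropomyosin (troponin T), and each subunit has a fast and a slow gene. The tibialis anterior of the mouse, the muscle beside the tibia, is made almost wholly of fast fibers, and slow fibers are found mainly in the soleus.

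RNA was sequenced from 24 tumors of male C57/BL6 mice aged 8 to 10 weeks. All tumors came from TC2Ras, a mouse prostate adenocarcinoma line made from TRAMP-C2 by lentiviral transfer of activated H-Ras, among other changes. Subcutaneous (SC) tumors came from 300000 TC2Ras cells and were taken after 1 week from mice given control plasmid (n = 2) or IL-27 plasmid (n = 2). Intratibial tumors came from 100000 TC2Ras-Luc cells, which also carry firefly luciferase, and were taken at day 14 (D14, n = 3 in each group) or at the end of the study (EOS, n = 2 in each group) from mice given control, cabo, IL-27 or both drugs (IL-27+cabo). EOS tumors were taken when each mouse reached its ethical endpoint. IL-27 is a cytokine, given as a plasmid driven into muscle with ultrasound, which was the tibialis anterior beside the bone in the intratibial model. Every mouse without IL-27 plasmid received control plasmid, and cabo (cabozantinib, an inhibitor of MET and VEGFR2 kinases) was given by mouth at 30 mg/kg each day in PVP. Intratibial mice without cabo received PVP alone. Dosing ran for 2 weeks from implantation, so EOS tumors taken later were off the drug. The line carries its transgenes in all groups, so no group is normal tissue. SC and intratibial tumors differ in site, cells and library series, and no test compared them.

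The libraries held 63729005 to 83782258 counts, and 3 counts, taken as the smallest readable level, equal 0.0357 to 0.0559 CPM, the counts scaled by library size. The label of prostate adenocarcinoma was checked against epithelial and prostate genes. Krt8 (159 to 19250 counts), Krt18 (11 to 357), Epcam (7 to 421) and Cdh1 (107 to 855) had counts in all 24 tumors, and Hoxb13 and Pbsn were at 0 in all 24. Libraries of a group correlated at r of 0.938 or more over genes in the other 9 groups, but in D14 IL-27+cabo the lowest r was 0.850, where mouse 20 stood apart. Fold changes, counts of calls and orders of level that rest on that tumor are given with and without it.

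These tumors were whole tissue, so fewer muscle fibers in a sample and less RNA per fiber cannot be told apart. A mean of 12 general muscle genes (Ckm, Acta1, Ttn, Neb, Actn2, Mb, Des, Ryr1, Cacna1s, Trdn, Xirp2 and Tcap), called the muscle reference score on the log2 CPM scale, is therefore given beside the isoforms. It ran from -1.90 to 2.63 in D14 control, from 0.25 to 5.87 in IL-27, from 5.68 to 6.13 in cabo and from 6.06 to 7.06 in IL-27+cabo. At EOS it ran from -2.45 to -0.90 in control, from -1.33 to -1.13 in IL-27, from 1.97 to 5.08 in cabo and from 1.67 to 2.85 in IL-27+cabo. In SC tumors its mean was -1.73 ± 1.04 in control and 3.70 ± 1.30 with IL-27 (SD, n = 2). The score thus stood above control without overlap in cabo and IL-27+cabo at both times and in SC IL-27, and overlapped with control in IL-27 at D14 and EOS. Its part in the results was not tested. A fit with the score as a covariate was run, which cannot tell score from treatment where groups do not overlap in it.

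The fast myosin genes stand in 1 cluster on chromosome 11 of GRCm38, with Myh2 at chr11:67171027-67197517, Myh1 at chr11:67200052-67224575 and Myh4 at chr11:67238029-67260446. Myh7 is at chr14:54970684-54994626, next to the cardiac gene Myh6. Tnni2 (chr7:142441808-142444410) and Tnnt3 (chr7:142498836-142516009) are neighbours on chromosome 7, while Tnnt1 is at the other end of that chromosome (chr7:4504570-4516382). Tnnc2 is at chr2:164777161-164779967, Tnni1 at chr1:135779434-135810989 and Tnnc1 at chr14:31208312-31211729. Counts are given per gene, and the sources used here do not say which exons were counted.

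Promoter sequences were available for 8 of the 10 genes in RefSeq (GRCm38.p6), not for Tnni2 or Tnnt3. The 150 bases before the start that RefSeq annotates are shown for 3 fast genes, which were low and high in the same tumors, and for Tnnc1, a slow gene that was not, 5′ to 3′ on the strand of the gene. Capitals mark the E-box CANNTG, the letters that MyoD family factors bind, which reads the same on both strands, and TATAAA on the strand of the gene. The windows are chr11:67199952-67200101 on the plus strand for Myh1, chr11:67237662-67237811 on the plus strand for Myh4, chr2:164779735-164779884 on the minus strand for Tnnc2 and chr14:31208162-31208311 on the plus strand for Tnnc1. Apart from that of Tnnc1, these starts differ from the outer gene bounds given above from GENCODE, so that the Tnnc2 window lies inside those bounds, the Myh1 window reaches into them, and the Myh4 window ends some way upstream of them.
Myh1: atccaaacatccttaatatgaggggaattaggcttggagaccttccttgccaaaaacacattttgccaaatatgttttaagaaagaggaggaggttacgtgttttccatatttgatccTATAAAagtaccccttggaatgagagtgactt
Myh4: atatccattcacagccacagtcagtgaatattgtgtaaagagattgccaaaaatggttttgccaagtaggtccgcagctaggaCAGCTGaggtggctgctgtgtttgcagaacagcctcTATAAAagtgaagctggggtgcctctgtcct
Tnnc2: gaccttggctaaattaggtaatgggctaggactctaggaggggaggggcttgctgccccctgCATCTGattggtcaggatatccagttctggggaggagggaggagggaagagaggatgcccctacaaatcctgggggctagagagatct
Tnnc1: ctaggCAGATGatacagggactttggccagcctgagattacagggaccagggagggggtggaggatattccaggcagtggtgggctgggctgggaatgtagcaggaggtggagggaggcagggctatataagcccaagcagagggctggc
At least 1 E-box stood in a window of 5 of the 8 genes (Tnni1, Tnnc2, Myh4, Tnnc1 and Myh7), beside 47.7% of 32851 mouse promoter windows of the same length. TATAAA stood in those of Myh1, Myh4 and Tnnt1, beside 4.84% of all windows, and none of the 8 held the MEF2 motif, beside 1.67%. Slow and fast genes alike held E-boxes, and these matches are descriptions of letters only.

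In SC tumors the question was what IL-27 plasmid alone did to the tumor. Fast fiber genes were low in control tumors and higher in both IL-27 tumors, while the groups overlapped for slow troponins I and C. Of the 10 genes, 6 passed at an adjusted p under 0.05, all higher (edgeR quasi-likelihood test, adjusted over 19360 genes), beside 3.52% of all genes called higher. The called genes were the 5 fast genes Myh2, Myh4, Tnni2, Tnnt3 and Tnnc2, and slow Myh7. The median log2 fold change was 7.24 over the 6 fast genes and 0.69 over the 4 slow genes, beside 0.04 over all genes.

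Myh4, the myosin of the fastest fibers, was at 2.73 and 0.160 CPM in the control tumors and at 339 and 108 CPM in the IL-27 tumors. The groups lay far apart, at a log2 fold change of 7.32 ± 1.37 (SE, edgeR adjusted p = 0.0109). Myh2, the myosin of oxidative fast fibers, had 0 counts in both control tumors and 428 and 344 counts in the IL-27 tumors, at least 124-fold higher, with an adjusted p of 0.00180. Myh1, the intermediate fast myosin, was at 1.70 and 0 CPM against 60.1 and 7.44 CPM. Its groups also did not overlap, but its adjusted p of 0.0807 missed the threshold at a log2 fold change of 5.37 ± 1.81. That change was 3.09 without IL-27 tumor 1, 4.30 without control tumor 2 and 6.20 without IL-27 tumor 2, where Myh1 was called (adjusted p = 5.27e-05). Without control tumor 1 the control tumor left has 0 counts, and no fold is given.

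The fast troponins followed the same pattern. Tnnt3, which ties troponin to tropomyosin, was at 1.41 and 0.306 CPM in control and at 186 and 53.1 CPM with IL-27 (log2 fold change 7.16 ± 1.02, adjusted p = 0.00398, edgeR). Tnnc2, the fast calcium sensor, went from 11 and 3 counts to 2525 and 1066 counts, which is 7.96 ± 0.82 on the log2 scale (adjusted p = 0.00166). Tnni2, the fast inhibitory subunit, was at 1.25 and 0.0399 CPM against 24.5 and 19.4 CPM, with 5.11 ± 1.24 and an adjusted p of 0.0292. For each of the 3 fast troponins both IL-27 tumors stood above both control tumors. With 1 tumor left out, the log2 fold change ran from 6.19 to 10.46 for Myh4, from 5.91 to 8.62 for Tnnt3, from 7.21 to 9.06 for Tnnc2 and from 4.11 to 9.06 for Tnni2. Each was highest without the first control tumor. Such a fit leaves 1 tumor in an arm, assumed to vary like the other arm.

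Among the slow genes, Myh7 had 0 counts in both control tumors and 112 and 144 counts in the IL-27 tumors, at least 41.4-fold higher (adjusted p = 0.00452, edgeR). That was still the lowest myosin, at 0.155 and 0.215 CPM per kb of exon against 56.4 and 18.0 for Myh4. Tnni1, the slow inhibitory subunit, was at 0.669 and 0.439 CPM in control and at 0.690 and 0.425 CPM with IL-27, so the groups overlapped, with a log2 fold change of 0.04 ± 0.81. Tnnc1 also overlapped, at 1.78 and 0.506 CPM against 0.702 and 1.15 CPM (-0.30 ± 0.79). Tnnt1, the slow tropomyosin-binding subunit, was at 0.384 and 0.639 CPM against 1.65 and 0.877 CPM, with 1.34 ± 0.73 and an adjusted p of 0.237, or 0.73 without IL-27 tumor 1. Groups did not overlap for 8 of the 10 genes, beside 31.6% of all genes that stood higher without overlap in this comparison of 2 against 2 tumors.

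The same tumors differed in other tissue genes. All 12 muscle reference genes were called higher, as were 5 of 6 marrow myeloid genes, whose mean log2 CPM was 1.67 to 1.79 with IL-27 against -3.13 to -2.61 in control, with 2 of the 6 at 0 in both control tumors and none in both IL-27 tumors. Their part in the result was not tested. With the muscle reference score as a covariate none of the 10 genes was called by edgeR, and the share of all genes called was not computed. That fit cannot tell the score from the treatment, since the groups do not overlap in the score and hold 2 tumors each.

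**Figure D1:**
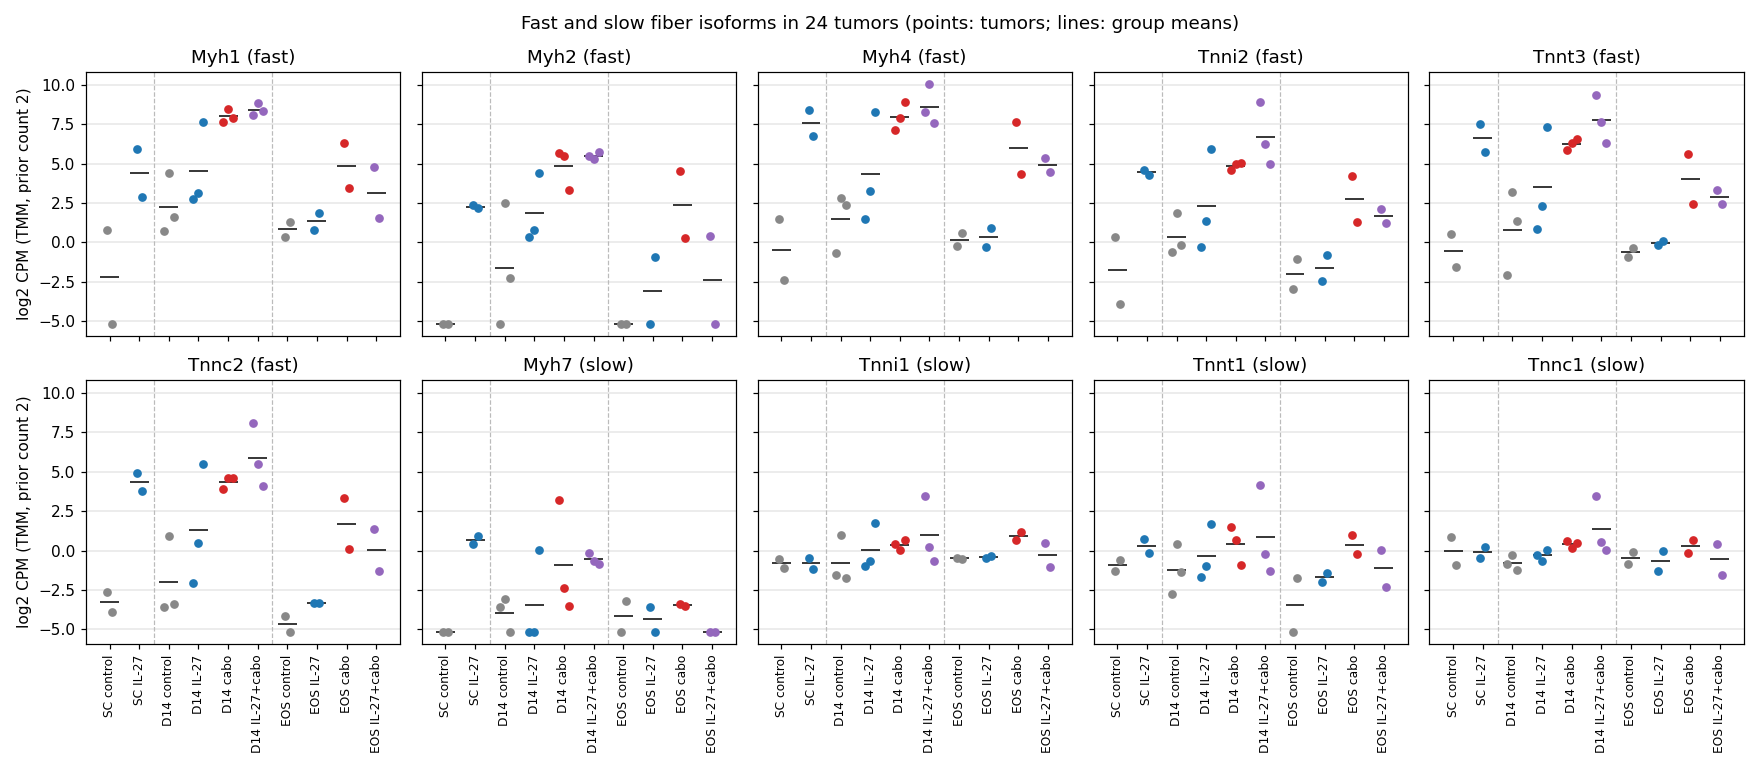
Level of each gene in 24 tumors, as log2 CPM (y axis) by group (x axis), with a point for each tumor, a line for each group mean and dashed lines between SC, D14 and EOS. Fast genes stood low in all control groups and high with cabo and IL-27+cabo at D14, while Tnni1, Tnnt1 and Tnnc1 differed less between groups and were highest in IL-27+cabo mouse 20.

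At D14 the question was how IL-27, cabo and both together changed intratibial tumors. With cabo, fast genes were higher in all 3 tumors than in any control tumor. The fast genes Myh1, Myh4 and Tnni2 were called higher at an adjusted p under 0.05, which is 3 of 9 genes tested, beside 1.20% of all genes called higher. DESeq2 called 5, beside 7.72% of the genes it tested. Under one of the 2 rules for differentially expressed genes (DEGs) in the study, called the DEG rule here, an unadjusted p under 0.05 and a log2 change of 1.5 or more either way, all 6 fast genes passed and no slow gene did, beside 1.73% of all genes in that direction. Under the other, with a linear fold of 1.5 in place of the log2 change, slow Tnnc1 passed too (fold 2.30, unadjusted p = 0.00983), which makes 7 of 9 genes, beside 4.58%. The median log2 fold change was 4.60 over the fast genes and 1.20 over the 3 slow genes tested, beside -0.01 over all genes.

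Myh4 had 44, 532 and 368 counts in control tumors and 9814, 16927 and 32567 counts with cabo, a log2 fold change of 6.07 ± 0.85 (SE, edgeR adjusted p = 0.0190). Myh1 had 120, 1645 and 217 counts against 13756, 25624 and 16419, with 4.92 ± 0.93 and an adjusted p of 0.0460. Tnni2 was at 0.631, 3.55 and 0.865 CPM against 23.6, 31.3 and 32.3 CPM, with 4.11 ± 0.62 and an adjusted p of 0.0225. In each case the lowest cabo tumor lay above the highest control tumor, which was mouse 5. Tnnt3 (0.206, 9.01 and 2.54 CPM against 57.7, 80.2 and 92.5 CPM) had an adjusted p of 0.0711 at 4.29 ± 0.95. Tnnc2 (4, 143 and 5 counts against 1050, 1729 and 1660) had 0.0660 at 4.97 ± 1.07. Myh2 (0, 433 and 13 counts against 3621, 3235 and 701) had 0.180 at 4.19 ± 1.42, the only fast gene for which one cabo tumor was close to a control tumor.

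The slow genes moved less. Tnnc1 was at 0.535, 0.799 and 0.398 CPM in control and 1.53, 1.10 and 1.36 CPM with cabo, without overlap, at 1.20 ± 0.35 on the log2 scale (edgeR adjusted p = 0.139). Tnni1 overlapped, at 0.315, 1.92 and 0.275 CPM against 1.31, 1.00 and 1.57 CPM (0.63 ± 0.72, adjusted p = 0.688). Tnnt1 also overlapped, at 0.123, 1.28 and 0.357 CPM against 2.80, 1.56 and 0.494 CPM (1.46 ± 0.86, adjusted p = 0.405). Myh7 did not pass the filter on low counts and was not tested. It had 657 counts in cabo mouse 21 but 12 and 4 in the other cabo tumors, beside 4, 7 and 0 in control, so its highest level in the series belonged to 1 tumor. In all, 7 of the 10 genes stood higher without overlap, beside 13.5% of all genes.

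The calls in cabo depended on single tumors. Without cabo mouse 21 only Myh4 was called (adjusted p = 0.0373), beside 0.482% of all genes. Without cabo mouse 25, cabo mouse 27 or control mouse 7 none was, beside 0.479%, 0.415% and 0.660%, with Myh4 at adjusted p of 0.0602, 0.0675 and 0.0787. Without control mouse 5, the control tumor with the highest muscle reference score, 7 genes were called, beside 3.06%. These were the 6 fast genes and slow Tnni1 (2.13, adjusted p = 0.0463). Without control mouse 3 the 3 calls were Myh4, Tnni2 and Tnnt3, beside 1.75%. Over these 6 fits by edgeR the log2 fold change ran from 5.47 to 6.64 for Myh4, from 4.42 to 6.83 for Myh1, from 3.71 to 5.28 for Tnni2 and from 3.73 to 5.80 for Tnnt3. It ran from 4.42 to 8.37 for Tnnc2 and from 3.60 to 8.61 for Myh2, and in all 6 fast genes the highest value came without control mouse 5. Slow Tnnt1 ran from 0.79 without cabo mouse 21 to 2.74 without control mouse 5. Beside the isoforms, 3 of 5 tendon genes were called higher with cabo, with a mean log2 CPM of 2.50 to 2.96 against 0.12 to 0.70 in control, where 1 of the 5 was at 0 in every tumor. Their part in the result was not tested.

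**Figure D2:**
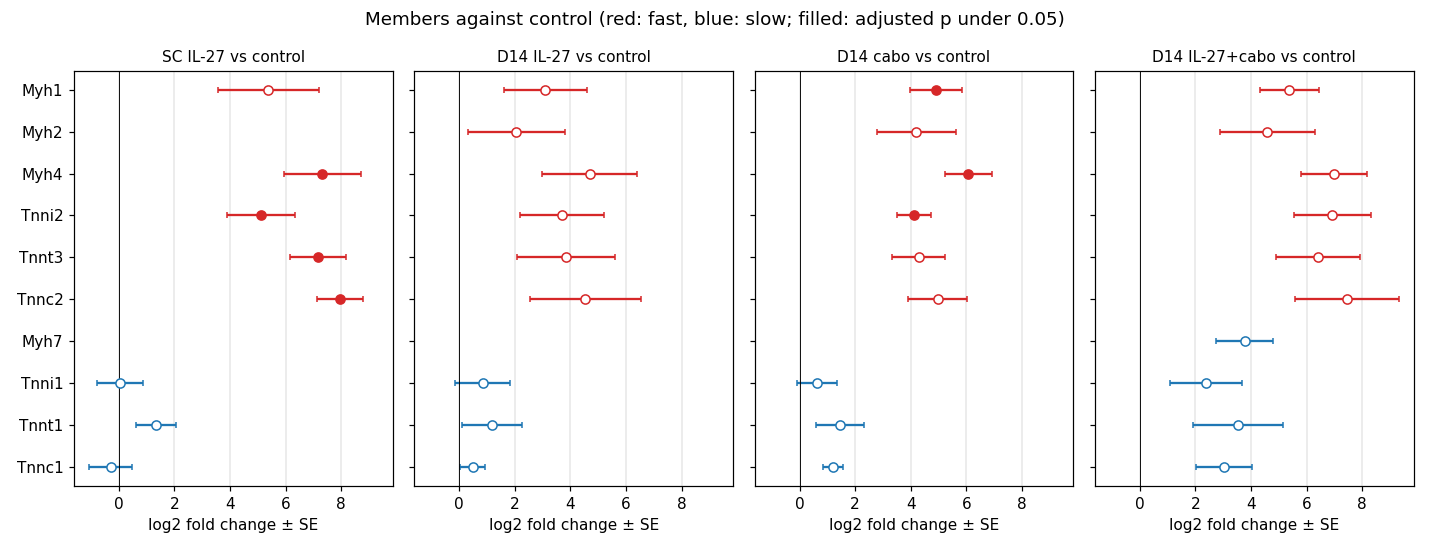
Log2 fold change of each gene against its control group (x axis, points, with bars for the standard error from edgeR) in SC IL-27 and in the 3 D14 treatments, fast genes in red, slow genes in blue, and filled points for an adjusted p under 0.05. Genes not tested are left out, as are Myh2 and Myh7 of the SC comparison, whose control tumors had 0 counts. Fast genes lie to the right of the slow troponins in all 4 panels.

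With IL-27+cabo at D14 the fast genes reached the highest levels of the series, and no gene was called at an adjusted p under 0.05 by edgeR, beside 0.0640% of all genes. Of the 10 genes, 8 had an unadjusted p under 0.05, beside 6.20% of all genes, and DESeq2 called 7 (Myh1, Myh4, Myh7, Tnni2, Tnnt3, Tnnc1 and Tnnc2), beside 1.99% of the genes it tested. The DEG rule took all 6 fast genes with Myh7 and Tnnc1, beside 2.61% of all genes. Without mouse 20 the same 8 genes had an unadjusted p under 0.05, beside 13.7% of all genes, 7 met the DEG rule, beside 2.33%, and DESeq2 called 5, beside 4.38%. Myh4 was at 305, 1070 and 188 CPM against 0.603, 6.96 and 5.06 CPM in control (log2 fold change 6.97 ± 1.19, edgeR adjusted p = 0.134), and Myh1 at 276, 461 and 317 CPM against 1.65, 21.5 and 2.98 CPM (5.37 ± 1.06, adjusted p = 0.200). No IL-27+cabo tumor came near a control tumor for either myosin. Tnnc2 was at 272, 44.4 and 16.9 CPM against 0.0548, 1.87 and 0.0687 CPM, with 7.45 ± 1.87 and an adjusted p of 0.327. That log2 fold change was 5.52 without mouse 20 and 10.83 without control mouse 5. Without control mouse 5 that of Myh1 was 7.27, and without mouse 22 that of Myh4 was 5.92. Tnnt3 was at 663, 197 and 78.8 CPM and Tnni2 at 472, 76.6 and 31.4 CPM, so mouse 20 was the highest of its group for all 3 fast troponins.

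Mouse 20 also held the highest slow troponins of all 24 tumors. Tnnt1 was at 18.1 CPM there against 0.836 and 0.380 CPM in the other tumors of its group. Tnni1 was at 10.8 against 1.13 and 0.619 CPM, and Tnnc1 at 11.1 against 1.44 and 0.985 CPM. Myh7, at 0.876, 0.620 and 0.521 CPM, did not set that tumor apart. The log2 fold change from control was 3.53 ± 1.61 for Tnnt1, 2.39 ± 1.29 for Tnni1 and 3.04 ± 1.01 for Tnnc1 with mouse 20, and 0.05, 0.07 and 1.07 without it. Without control mouse 5 Tnnt1 was at 4.79 and Tnni1 at 3.88. Without mouse 20 edgeR called Myh4 (7.22) and Tnni2, both at an adjusted p of 0.0420, beside 0.899% of all genes. The mean of the fast troponins minus that of the fast myosins, on the log2 scale of CPM per kb of exon, came to 3.89 in mouse 20 and to 0.78 and 0.31 in the others. This difference of means was above 0 in all 24 tumors and largest in mouse 20. The myosin mean includes Myh2, which was at 0 counts in 7 of 24 libraries. Gene by gene the order can differ, since in D14 cabo the mean of Myh4 (47.0) exceeded that of Tnnc2 (26.3).

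IL-27 alone at D14 gave no call for any of the 9 genes tested by edgeR (beside 0 of 18519 genes tested), and DESeq2 called none, beside 0.0104% of the genes it tested. At an unadjusted p under 0.05, 2 passed, beside 2.76% of all genes. These were Myh4 and Tnni2, which both met the DEG rule, beside 0.232% of all genes in that direction. Myh4 was at 2.73, 9.69 and 308 CPM against 0.603, 6.96 and 5.06 CPM in control (log2 fold change 4.69 ± 1.72), and Tnni2 at 0.774, 2.50 and 60.7 CPM against 0.631, 3.55 and 0.865 CPM (3.69 ± 1.52). The groups overlapped for all 10 genes, and IL-27 mouse 8 alone was high. Without control mouse 5 that of Tnni2 was 4.86. Without mouse 8 the log2 fold changes were 0.58 and -0.02, and 0 of 9 genes had an unadjusted p under 0.05, beside 5.47% of all genes. Mouse 8 also had the highest muscle reference score of its group, at 5.87 against 0.25 and 1.47.

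The interaction of IL-27 and cabo at D14, that is whether the change with both differed from the sum of the changes with each, gave no call among the 10 genes by edgeR (beside 0 of 19899 genes) or by DESeq2 (beside 0.00967%), and no gene had an unadjusted p under 0.05, beside 1.88% of all genes. The same held without mouse 20, beside 2.82% of all genes at that p. This does not show that the changes added up, since the standard errors ran from 1.08 for Tnnc1 to 2.73 for Myh7 on the log2 scale.

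The balance of fast and slow genes was measured as the mean log2 CPM of the 6 fast genes minus that of the 4 slow genes in each tumor. It was above 0 in 22 of 24 tumors, also in 22 when taken per kb of exon. In D14 control it was 0.28, 3.11 and 2.29, in IL-27 2.54, 3.75 and 5.63, in cabo 4.35, 6.66 and 6.88, and in IL-27+cabo 5.29, 7.27 and 6.85. All cabo and IL-27+cabo tumors thus lay above all control tumors, and IL-27 overlapped with control and with cabo. At EOS it was 0.74 and -0.27 in control, 0.06 and 1.38 in IL-27, 5.72 and 2.44 in cabo, and 3.95 and 3.06 in IL-27+cabo. In SC tumors it was 0.75 and -1.74 in control and 5.56 and 4.30 with IL-27. Within D14 cabo and within D14 IL-27+cabo the tumor with the lowest balance was the one with the highest slow mean, mouse 21 and mouse 20.

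**Figure D3:**
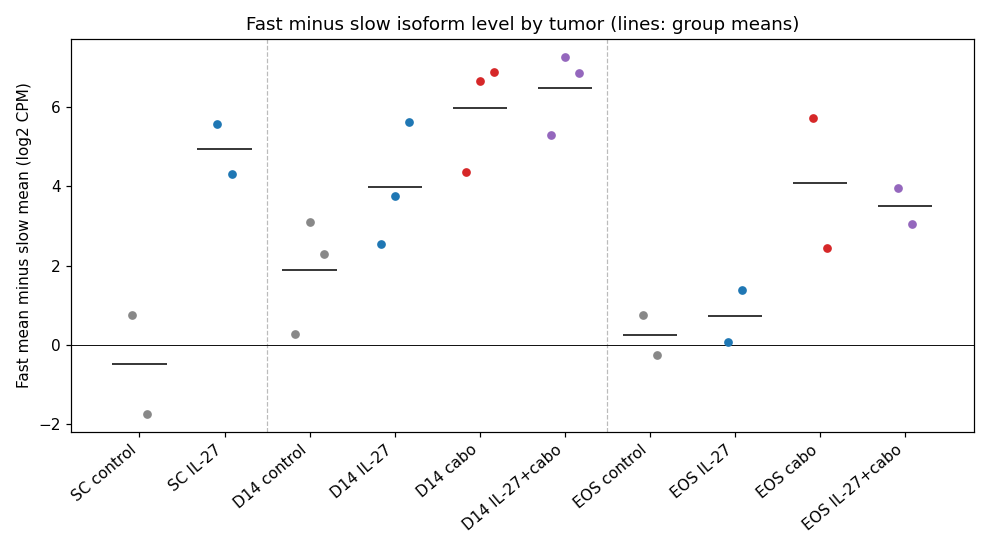
Mean log2 CPM of the 6 fast genes minus the mean of the 4 slow genes (y axis) by group (x axis), with a point for each tumor and a line for each group mean. D14 cabo and IL-27+cabo tumors lie between 4.35 and 7.27, D14 control tumors between 0.28 and 3.11, and EOS control and EOS IL-27 tumors between -0.27 and 1.38.

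The balance can also be read within each troponin subunit, where fast and slow genes do the same task. Per kb of exon, fast exceeded slow troponin T (Tnnt3 against Tnnt1) in 23 of 24 tumors, fast exceeded slow troponin I (Tnni2 against Tnni1) in 21 and fast exceeded slow troponin C (Tnnc2 against Tnnc1) in 14. The ratios that follow are of log2 CPM, and per kb they are higher by 0.48 for T, 1.27 for I and 0.38 for C. For troponin C the log2 ratio was -2.77, 1.20 and -2.14 in D14 control, and 3.27, 4.42 and 4.11 in cabo. It was 4.61, 4.92 and 4.07 in IL-27+cabo, and -3.27 and -5.06 in EOS control. The ratio was thus below 0 in both EOS control tumors and in all D14 control tumors but mouse 5, and above 0 in every D14 tumor given cabo, and the same held per kb. For troponin I the log2 ratio was 0.94, 0.87 and 1.56 in D14 control, 4.14, 4.93 and 4.34 in cabo and 5.44, 6.04 and 5.60 in IL-27+cabo, and here mouse 20 was close to its group. For troponin T it was 0.63, 2.79 and 2.74 in D14 control, 4.35, 5.66 and 7.47 in cabo and 5.19, 7.84 and 7.59 in IL-27+cabo, where mouse 20 lay below the other two.

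**Figure D4:**
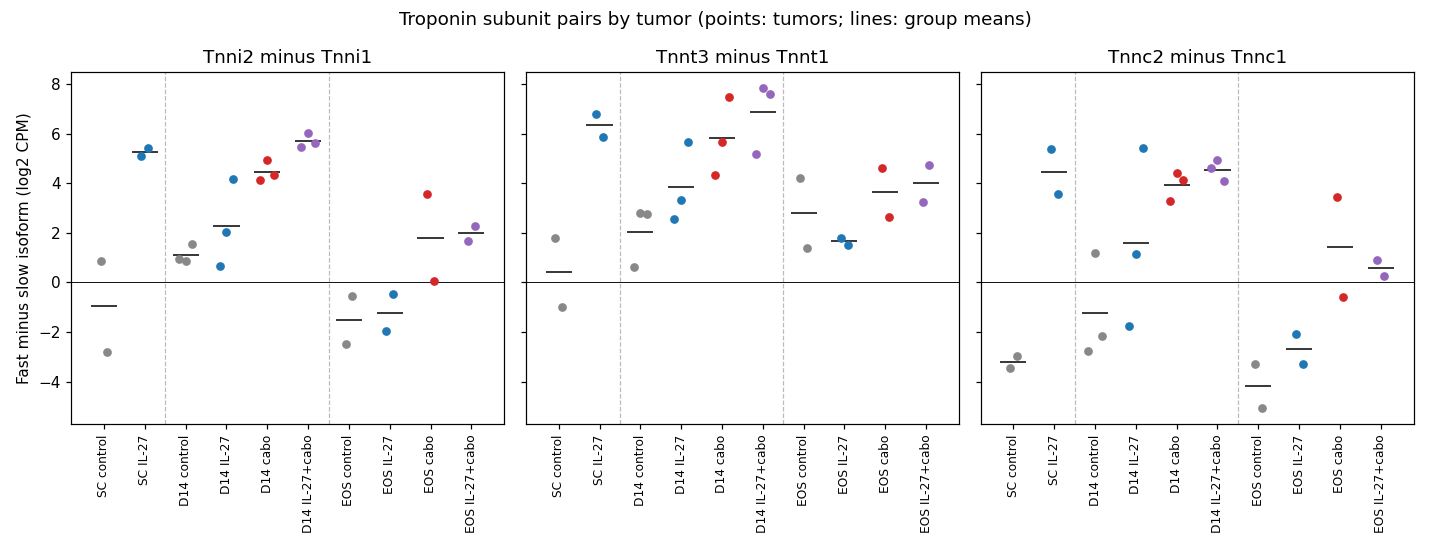
Log2 CPM of the fast gene minus that of the slow gene (y axis) for troponins I, T and C by group (x axis), with a point for each tumor and a line for each group mean. The troponin C ratio passes from below 0 in SC and EOS control tumors to between 3.27 and 4.92 in D14 cabo and IL-27+cabo tumors.

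Over all 24 tumors the fast genes tracked the muscle reference score nearly 1 to 1, and the slow genes did not. The slope of log2 CPM on the score was 0.97 for Tnni2, 1.01 for Tnnt3, 1.02 for Myh1, 1.10 for Myh4, 1.16 for Tnnc2 and 1.21 for Myh2. For the slow genes it was 0.52 for Myh7, 0.40 for Tnnt1, 0.22 for Tnni1 and 0.17 for Tnnc1. Pearson's r ran from 0.928 to 0.970 for the fast genes and from 0.551 to 0.725 for the slow genes, as a description over tumors that share treatments and mice of 1 strain. The genes most like the fast mean, out of 22291 genes, were Atp2a1 (r = 0.983), the calcium pump of fast fibers, Actn3 (0.978), an actin crosslinker of fast fibers, Ckm (0.977), Acta1 (0.972) and Mb (0.972). Those most like the slow mean were Mylpf (0.878), Nctc1 (0.874), Hspb3 (0.872), Pgam2 (0.849) and Casq1 (0.843), all lower than the r of any gene named for the fast mean. Of these, Mylpf and Casq1 are fast fiber genes, not slow ones.

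**Figure D5:**
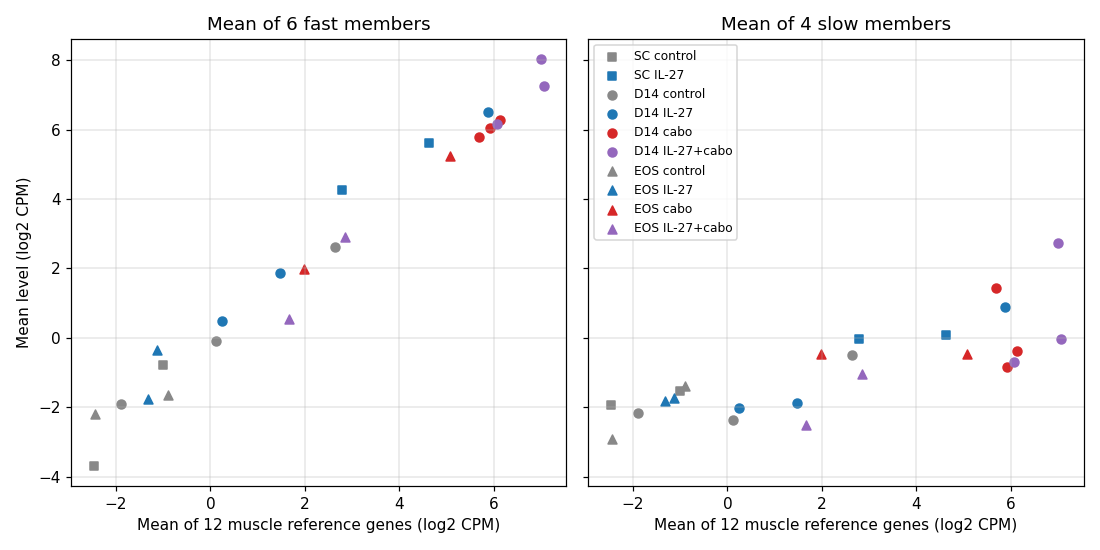
Mean log2 CPM of the 6 fast genes (left, y axis) and of the 4 slow genes (right) against the mean log2 CPM of 12 muscle reference genes (x axis), with a point for each of 24 tumors, marked by site or time and colored by treatment. The fast mean climbs from -3.68 to 8.03 along the reference, while the slow mean stays between -2.92 and 2.74.

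Levels of different genes were compared as CPM per kb of exon. Tnnt3 led in 5 of 10 groups, or in 4 without mouse 20. In D14 cabo its mean was 48.5, ahead of Myh4 (47.0), Myh1 (41.5), Tnnc2 (26.3), Tnni2 (19.4) and Myh2 (4.99), with Tnnc1 (1.28), Tnnt1 (0.733), Myh7 (0.372) and Tnni1 (0.360) behind. Tnnt3 (36.5 to 58.4), Myh4 (23.3 to 78.6) and Myh1 (30.9 to 56.1) did not differ beyond their spread, whereas the lowest tumor for Myh1 lay above the highest for Myh2 (7.24). In D14 IL-27+cabo the order began with Tnnt3 (198), Tnnc2 (139) and Tnni2 (129) and went on to Myh4 (86.6) and Myh1 (55.3), means in which the troponins carry mouse 20. Without that tumor Myh4 led (105), ahead of Tnnt3 (87.2), Myh1 (61.3), Tnnc2 (38.4) and Tnni2 (36.1). In EOS control and EOS IL-27 the slow gene Tnnc1 led at 0.683 and 0.645, and in SC control at 1.10. Myh4 exceeded Myh1 in 14 of 24 tumors, among them all 4 SC tumors. About 9.73% of the 100-base stretches of Myh1, 9.17% of Myh2 and 3.85% of Myh4 also occur in another gene, mostly in one another and in Myh8, and 11.2% of Myh7 in Myh6, so reads could move between these. The troponins shared none. Exons of Tnnc2 overlap those of Ube2c on the other strand, and Tnnc2 held 5 counts or fewer in several tumors. Exons of Myh1 (Myhas), Myh2 (a Riken gene) and Myh7 (Mhrt and 2 predicted genes) also overlap genes on the other strand. The libraries were stranded, but the sources used here do not say whether counting used strand.

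At EOS the question was whether the D14 state lasted. Fast genes had a lower mean level at EOS than at D14 in each of the 4 groups. None of them was called at an adjusted p under 0.05 by edgeR. The share of all genes that edgeR called was 0.104% in control, 0 in IL-27, 2.09% in cabo and 0 in IL-27+cabo. In control tumors 2 of 8 genes tested had an unadjusted p under 0.05, beside 13.1% of all genes, and DESeq2 called 0, beside 3.95% of the genes it tested. In IL-27 tumors 6 of 9 had such a p, beside 5.05%, and DESeq2 called 0, beside 0.554%. Without D14 IL-27 mouse 8, 5 had such a p, beside 4.20%. In cabo tumors 2 of 10 did, beside 17.6%, and DESeq2 called 1, beside 10.1%. In IL-27+cabo tumors 7 of 10 did, beside 3.83%, and DESeq2 called 6, beside 1.48%. Without mouse 20 these were 7, beside 7.74%, and 6, beside 2.60%. In control tumors Myh2 went from 0, 433 and 13 counts to 0 and 0, at least 45.8-fold lower on average, with overlap at 0. That bound rests on mouse 5, without which it is 2.10-fold. In IL-27+cabo tumors Myh7 went from 47, 46 and 37 counts to 0 and 0, at least 16.7-fold lower (unadjusted p = 0.00143, edgeR adjusted p = 0.451).

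In IL-27 tumors Myh4 was at 0.798 and 1.87 CPM at EOS against 2.73, 9.69 and 308 CPM at D14, a log2 change of -6.33 ± 2.20 (edgeR adjusted p = 0.818). Tnnt3 (-5.87 ± 2.09) and Tnnc2 (-7.71 ± 2.56) had the same adjusted p. Without mouse 8 the changes were -2.23, -1.82 and -3.45, and without EOS mouse 12 that of Myh4 was -7.06. The 6 fast genes stood lower at EOS without overlap, beside 11.7% of all genes.

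In IL-27+cabo tumors Myh4 was at 41.7 and 22.4 CPM at EOS against 305, 1070 and 188 CPM at D14, a log2 change of -4.02 ± 0.92 (edgeR adjusted p = 0.574). Tnnt3 was at 9.80 and 5.36 CPM against 663, 197 and 78.8 CPM (-5.43 ± 1.17, adjusted p = 0.542). Tnnc2 was at 2.54 and 0.387 CPM against 272, 44.4 and 16.9 CPM (-6.31 ± 1.76, adjusted p = 0.747). Without mouse 20 the changes were -4.29 for Myh4, -4.18 for Tnnt3 and -4.38 for Tnnc2, at adjusted p of 0.270, 0.148 and 0.305. That of Myh4 was -3.00 without mouse 22, and that of Tnnc2 was -8.22 without EOS mouse 16 and -5.48 without EOS mouse 28. The 6 fast genes and Myh7 stood lower at EOS without overlap, beside 11.0% of all genes, while Tnni1, Tnnt1 and Tnnc1 overlapped. In cabo tumors Myh1 had 5639 and 759 counts against 13756, 25624 and 16419 at D14 (-2.57 ± 0.76, adjusted p = 0.156), and Tnnc2 had 722 and 72 counts against 1050, 1729 and 1660 (-1.93 ± 0.79, adjusted p = 0.278). The EOS cabo tumors differed widely, with mouse 19 nearer to D14 levels than mouse 23. For Myh1 mouse 19 was still below all D14 cabo tumors, at 77.5 against 196 to 356 CPM. The same held for Tnni2, Tnnt3 and Tnnc2, and of the fast genes only Myh2 and Myh4 overlapped. Without mouse 19, edgeR called 4 genes lower, beside 2.18% of all genes called. These were Tnni2, Tnnt3, Myh1 (-4.58, adjusted p = 0.0106) and Tnnc2 (-4.33, adjusted p = 0.0110). Without mouse 23 it called none of the 10, beside 0.434%, with Myh1 at -1.76 (adjusted p = 0.134) and Tnnc2 at -1.08 (adjusted p = 0.259). Either fit sets 1 EOS tumor against the D14 tumors, and that tumor is assumed to vary as they do. Of 5 tendon genes, 2 were called lower at EOS in cabo, with a mean log2 CPM of -0.09 to 0.69 against 2.50 to 2.96 at D14, and 1 of the 5 was at 0 in both EOS tumors and none was at 0 in every D14 tumor. Their part in the result was not tested.

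Within EOS, cabo tumors held more fast isoform RNA than control tumors, without a call after adjustment, beside 0 of 20026 genes. Myh4 was at 198 and 20.1 CPM with cabo against 0.811 and 1.47 CPM in control (log2 fold change 6.57 ± 1.15, unadjusted p = 5.66e-04, edgeR adjusted p = 0.404). Tnnt3 was at 48.1 and 5.40 CPM against 0.492 and 0.763 CPM (5.41 ± 1.01, adjusted p = 0.404). Tnnc2 had 722 and 72 counts against 2 and 0 (8.42 ± 1.73, adjusted p = 0.404). Both control tumors lie under 3 counts, the smallest readable level, so the size of that change is uncertain. Tnni2 was at 18.3 and 2.39 CPM against 0.101 and 0.444 CPM (5.23 ± 1.19) and Myh1 at 77.5 and 11.0 CPM against 1.26 and 2.40 CPM (4.59 ± 1.28), at adjusted p of 0.404 and 0.472. Myh2 had 1650 and 81 counts against 0 and 0, at least 280-fold higher (adjusted p = 0.485), or 27.6-fold without mouse 19. Both cabo tumors lay above both control tumors for all 6 fast genes and for Tnni1 and Tnnt1, which makes 8 of 10 genes, beside 21.9% of all genes. At an unadjusted p under 0.05, 8 of 9 genes tested passed, beside 8.90% of all genes, and DESeq2 called 5 (Myh1, Myh4, Tnni2, Tnnt3 and Tnnc2), beside 1.25% of the genes it tested. Without mouse 23 edgeR called Myh4 (7.43) and Tnnt3 (6.25), beside 0.0470% of all genes. Without mouse 19 it called none, beside 0 of 21198 genes, with Myh4 at 4.13 and Tnnt3 at 3.10, both at an adjusted p of 0.683. Tnnc2 was then at 6.03, Tnni2 at 3.12 and Myh1 at 2.58, and without mouse 23 they were at 9.28, 6.05 and 5.40. Without control mouse 13 Tnni2 was at 6.64 and Tnnc2 at 7.47. Without control mouse 9 the control tumor left has 0 counts of Tnnc2, and no fold is given. Fits without a cabo tumor leave 1 cabo tumor, and fits without a control tumor leave 1 control tumor. That tumor is assumed to vary like the other EOS groups.

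In EOS IL-27+cabo 5 fast genes also lay above control. Myh4 was at 41.7 and 22.4 CPM (4.82 ± 1.08, adjusted p = 0.184, edgeR) and Tnnc2 at 2.54 and 0.387 CPM against 0.0290 and 0 in control (6.54 ± 1.70, adjusted p = 0.200). Both control values of Tnnc2 again lie below the smallest readable level, so the size of that change is uncertain. The change of Tnnc2 was 4.60 without mouse 16, 5.59 without control mouse 13 and 7.33 without mouse 28. Tnni2 (4.42 and 2.32 CPM), Tnnt3 (9.80 and 5.36 CPM) and Myh1 (27.3 and 2.89 CPM) also stood above both control tumors, so that 5 of 10 genes did not overlap, beside 20.2% of all genes. No gene was called by edgeR after adjustment, beside 0 of 20026 genes. All 5 had an unadjusted p under 0.05, beside 14.2% of all genes, and DESeq2 called 3, Myh4, Tnnt3 and Tnnc2, beside 4.02%. Myh2 had 97 and 0 counts against 0 and 0. With EOS IL-27 none of the 9 genes tested had an unadjusted p under 0.05 by edgeR, beside 3.25% of all genes, and DESeq2 called none, beside 0.121%. Myh4 was at 0.798 and 1.87 CPM there, which overlapped with control. Tnnt3 (0.869 and 1.04 CPM) and Tnnc2 (5 and 5 counts) stood above control without overlap, which makes 2 of 10 genes, beside 17.0% of all genes.

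Whether a treatment's change differed between D14 and EOS was tested as an interaction over all 20 intratibial tumors. None of the 10 genes was called by edgeR for IL-27, cabo or IL-27+cabo, beside 0, 0.0788% and 0.0788% of all genes, and DESeq2 was not run on this test. Beside 1.93%, 4.11% and 9.14% of all genes, 0, 0 and 1 of the 10 had an unadjusted p under 0.05. The gene was Tnnc1 with IL-27+cabo (-2.74 ± 1.19, edgeR adjusted p = 0.531), whose D14 group includes mouse 20. Without that tumor it was -0.82 ± 0.83 (adjusted p = 0.780), and 0 of the 10 had an unadjusted p under 0.05, beside 10.4% of all genes.

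The wider program was read from lists of companion genes. In D14 cabo, 3 of 12 fast companions were called higher by edgeR, namely Mybpc2 (log2 fold change 5.71 ± 0.98, adjusted p = 0.0338), the fast myosin-binding protein, Mylk2 (3.94 ± 0.37, adjusted p = 0.00331), the skeletal myosin light chain kinase, and Myoz1 (3.40 ± 0.28, adjusted p = 0.00314), a Z-disc protein of fast fibers. Among slow companions 5 of 10 tested were called higher, namely Myoz2 (3.97, adjusted p = 0.0235), Csrp3 (6.17, 0.0315), Ankrd2 (4.71, 0.0401), Lmod2 (5.44, 0.0209) and Fhl1 (3.91, 0.0134). The median was 3.64 over the fast and 3.94 over the slow companions tested, beside -0.01 over all genes. In D14 cabo the companions thus did not divide as the 10 isoform genes did, though slow Myl2 and Myl3 were not tested. Against control the fast median was higher in SC IL-27 (5.20 against 3.87), D14 IL-27 (3.28 against 2.67), EOS cabo (4.19 against 2.21) and EOS IL-27+cabo (2.86 against 1.02). It was lower in D14 IL-27+cabo (4.78 against 4.97) and EOS IL-27 (0.00 against 0.19). These differences were not tested. Several of the called slow companions, such as Csrp3 and Ankrd2, are also known as stress-responsive genes of muscle. In SC tumors 8 of 12 fast companions were called higher and 1, Eno3, lower (-1.67 ± 0.40, adjusted p = 0.0275), and 4 of 11 slow companions were called higher.

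Regulators of fiber type were mostly not called. In D14 cabo 1 of 12 was called higher and 1 lower. The first was Sox6 (2.60 ± 0.30, adjusted p = 0.00773, edgeR), known to repress slow fiber genes, with means of 3.12 ± 0.464 CPM against 0.511 ± 0.136 CPM in control (SD, n = 3). Prox1, known to support slow fibers and also a marker of lymphatic vessels, fell, with -2.80 ± 0.41 and an adjusted p of 0.0210, at 0.481 ± 0.163 CPM against 3.36 ± 1.25 CPM (SD, n = 3). In SC tumors, with 11 tested, Mef2c rose (1.64 ± 0.37, adjusted p = 0.0227) and Ppard fell (-4.58 ± 0.36, adjusted p = 0.00138). The embryonic and neonatal myosins Myh3 and Myh8, used by regenerating fibers, had 48 to 231 and 43 to 229 counts in D14 cabo tumors against 4 to 233 and 0 to 192 in control, without a call. Of 6 other striated isoforms none was called in D14 cabo or SC tumors, and 8 heart genes stayed low throughout, with 1 to 4 of them at 0 in every tumor of all groups but SC control.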

How the data were processed

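The authors deposited whole-number read counts per Ensembl gene for 24 tumors, without normalization. Their stranded poly(A) libraries were mapped with HISAT2. The submitters' processing notes name FastQC, HISAT2, StringTie and DESeq2, without versions, and a human build, GRCh38, although the identifiers are those of mouse genes. The counting program, mouse build and annotation are not given in the sources used here. Between 30.4% and 35.5% of low values were multiples of 4, so counts may exceed fragments, and counts divided by 4 were an alternative.

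Gene names and GRCm38 coordinates came from GENCODE M21, which holds 55141 of 55401 identifiers. Counts were tested in R 4.3.3 with edgeR 4.0.16 (filterByExpr, TMM, quasi-likelihood test, two-sided, Benjamini-Hochberg adjustment over all genes tested). SE is the fold change divided by the root of F. A fit held the groups compared, with the D14 interaction in all D14 groups, the EOS groups in 1 fit and the time interaction in all intratibial tumors. Log2 CPM used a prior count of 2. A fold against a group at 0 used 3 counts per library. No replicate block was used. Alternatives were DESeq2 1.42.0, RLE scaling, no filter on low counts, a single fit of all 24 tumors, a covariate for muscle score, splines of GC content and length, and leaving out each tumor. The time interaction, DESeq2 without mouse 20 and the DEG rule with a fold of 1.5 were added after seeing the data. The pipeline was tested on simulated counts.

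The text names the 10 isoform genes, companion lists and the 5 genes most like each mean. Fold changes are printed only for genes with an unadjusted p under 0.05, though not for each of them, and for slow genes in 3 comparisons. Members and lists were chosen with earlier results of these data known. Intratibial libraries carry separate mouse numbers. SC labels name no mouse, and SC cells went into each flank, so both SC tumors of a group may share a mouse and their p-values may then measure spread within a mouse. Floors cover counting error only, whereas SE and SD include spread between tumors. One transgene of the line is not reported here.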

Additional observations from a re-analysis of the deposited data

How the results depend on the processing

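DESeq2 called more genes than edgeR in D14 cabo (5 against 3), D14 IL-27+cabo (7 against 0), EOS against D14 in cabo (1) and IL-27+cabo (6), EOS cabo (5) and EOS IL-27+cabo (3). Without mouse 20 it called 5 in D14 IL-27+cabo and 6 in EOS against D14 IL-27+cabo. Counts divided by 4 gave 5 calls in D14 cabo, and no filter or all 24 tumors in one fit gave 0. In SC IL-27, counts divided by 4 and all 24 tumors in one fit each gave 7 calls, with Myh1 added. No filter gave 5 there, and the call of Tnni2 was lost. The share of all genes called was not computed for these fits or for those with the covariate. With the muscle score as a covariate SC IL-27 and D14 cabo had 0 calls, and signs turned, none of them at an adjusted p under 0.05. The log2 fold changes were then -6.59 (Myh1), -0.41 (Myh4) and -2.27 (Tnni1) in SC IL-27, and -0.03 (Tnni2) in D14 IL-27. In D14 cabo they were -3.33 (Myh2), -2.22 (Tnni1), -1.83 (Tnnt1), -0.61 (Tnnt3) and -0.95 (Tnnc2), and in D14 IL-27+cabo -3.52, -1.69, -1.72, -0.72 and -0.03 for the same genes. For EOS against D14 they were 0.35 (Myh1), 0.54 (Myh4), 0.29 (Tnni2) and 0.80 (Tnnt3) in IL-27, and 1.30, 2.13, 2.77 and 1.74 for these and 6.16 (Tnnc2) in IL-27+cabo. At EOS they were -1.34 (Myh1), -0.31 (Tnni2) and -0.62 (Tnnt1) with cabo, and -1.40 (Myh1) and -0.08 (Tnni2) with IL-27+cabo. The score is built from muscle genes and differs between the groups, so it removes much of the contrast by construction. For the near-zero SC values, Tnni1 turned to -0.01 with counts divided by 4 and to -0.29 with the GC and length correction, and Tnnc1 to 0.96 with that correction. The cause of the other changes was not tested.

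Leaving out 1 tumor at a time gave 6 to 7 calls in SC IL-27, 0 to 7 in D14 cabo, 0 to 2 in D14 IL-27+cabo, 0 to 4 in EOS against D14 cabo and 0 to 2 in EOS cabo. The share of all genes called in these fits was 10.0% to 24.9%, 0.415% to 3.06%, 0 to 0.899%, 0.331% to 2.18% and 0 to 0.0470%. The other comparisons had 0 calls among the 10 genes, beside at most 0.0190% of all genes. In SC and EOS groups this leaves 1 tumor, assumed to vary like the other groups. In SC IL-27, the log2 fold change of Tnni1 then ran from -0.42 to 0.37 and that of Tnnc1 from -0.97 to 0.88, and Tnni2 in D14 IL-27 from -0.02 to 4.86. The fast minus slow mean ranged from -1.74 to 0.75 in SC control, 4.30 to 5.56 in SC IL-27, 1.28 to 2.70 in D14 control, 3.15 to 4.69 in IL-27, 5.50 to 6.77 in cabo and 6.07 to 7.06 in IL-27+cabo, and at EOS from -0.27 to 0.74, 0.06 to 1.38, 2.44 to 5.72 and 3.06 to 3.95 in the same order. With the myosins alone it was 2.56 in SC control, 4.64, 6.99, 7.83 and 8.06 at D14 and 2.78, 3.90, 7.87 and 7.07 at EOS, and with the troponins alone -0.96, -0.74 and 2.19 in EOS control, IL-27 and IL-27+cabo. With a prior count of 0.25 the log2 ratio of Tnnc2 to Tnnc1 was -3.61 in SC control and -6.02 in EOS control.

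Only the SC tumors share replicate numbers. Deviations of same-numbered tumors from their group means correlated at r = 0.0313 over genes. With 2 tumors in a group both pairs give the same value. It cannot show whether same-numbered tumors share a mouse or a day. A fit with the replicate number as a block called 7 genes in place of 6, and 7 with the GC and length correction too, where Tnni1 was -0.31 and Tnnc1 1.10. The share of all genes called was not computed for either fit. Of 117 alternative fits of the 9 called results, 89 kept the call, 27 lost it and 1 turned its sign. The D14 cabo calls were kept less often, in 5 of 13 alternatives for Myh1, 6 for Tnni2 and 7 for Myh4. Each SC call was kept in 11 or 12 of 13. With 2 or 3 tumors in a group, small changes of the slow genes could not be told from 0, and Myh7 had under 10 counts in all 7 control tumors.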
